A study of Mus musculus with 13 samples.

Results

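The 4 RNAs described here, AI427809, Gm16731, Gm34093 and Dlx6os1, are noncoding genes whose mean levels differed between the PSGL1_KO and the vector libraries of this series. They were chosen on that very contrast, from 56923 gene IDs per count table, so their levels and fold changes in it are a description and carry no test. RNA came from CD45-positive cells sorted from subcutaneous tumours of EL4, a mouse T-cell lymphoma line that belongs to the CD45-positive lineage itself. In both groups, mice 6 to 8 weeks old received 500000 EL4 cells in the right flank, and tumours were removed about 20 days later. The 7 vector libraries came from tumours of EL4 cells carrying a vector, and the 6 PSGL1_KO libraries from tumours of EL4 cells with PSGL1 knocked out. The knockout therefore lay in the injected lymphoma cells, and the label names no genotype for the host mice and no clone number for the EL4 cells. The sorted population can hold lymphoma cells and host leukocytes together, so fewer cells of a type and less RNA per cell cannot be told apart. The titles do not say that each replicate was its own mouse, and the p-values below measure the spread between these libraries.

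Gene IDs received 3710817 to 5712566 counts per library, with a median of 4584464. These were 10.5% to 12.5% of all entries in the tables, while 67.3% to 75.4% lay over no annotated feature. Mitochondrial IDs took 34.5% of the gene counts in vector replicate 5 and 10.0% to 17.8% in the other 12 libraries. Gene names were used only in 3 stretches where counts of protein-coding genes matched their names, on chromosome 4 from 3.55 to 59.80 Mb, chromosome 6 from 3.46 to 17.34 Mb and chromosome 15 from 9.07 to 38.08 Mb (GRCm38). The names of the 4 RNAs rest on their position in these stretches. Whether the annotation used for counting was on the build of the alignment was not tested. Shares over all IDs given below are therefore shares of IDs, most of them with names not checked. Selplg, which encodes PSGL-1, lies outside them, and its ID held 11 to 53 counts in vector and 3 to 63 in PSGL1_KO libraries, so it could not check the labels. Each library also carries a number that starts with 3 for replicates 1 and 2 of both groups and with 7 for all others. What that number stands for is not given in the sources used here.

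Long noncoding RNAs are transcripts without a known protein product, and several act on transcription of genes beside them. AI427809 carries the symbol Mexis in RefSeq. MeXis is known from mouse macrophages as an RNA that liver X receptors, nuclear receptors for oxidised cholesterol, switch on together with the neighbouring cholesterol exporter gene Abca1, whose transcription it helps. Dlx6os1, also called Evf2, is an antisense RNA of the Dlx5 and Dlx6 homeobox genes and is known from the embryonic forebrain, where it takes part in the control of that locus in developing interneurons. Gm16731 and Gm34093 are catalogued transcripts to which no role is ascribed here.

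The promoters of the members are shown because each RNA is set below against the genes around it, which have start sites of their own. RefSeq (GRCm38.p6) gave promoters, from 250 bases before to 50 bases after a start, for 3 of the 4 members. Capitals mark matches, on either strand, to CCAAT (the CCAAT box), GGGCGG (the GC box), TATAAA (the TATA box) and TAATTA (a core recognised by homeodomain proteins such as the Dlx factors). GAGGAAGT, a motif of the myeloid factor PU.1, and TGACTCA, the AP-1 motif, were searched in the same way and had no match in these windows.
AI427809, first start, chr4:53270183-53270482, minus strand: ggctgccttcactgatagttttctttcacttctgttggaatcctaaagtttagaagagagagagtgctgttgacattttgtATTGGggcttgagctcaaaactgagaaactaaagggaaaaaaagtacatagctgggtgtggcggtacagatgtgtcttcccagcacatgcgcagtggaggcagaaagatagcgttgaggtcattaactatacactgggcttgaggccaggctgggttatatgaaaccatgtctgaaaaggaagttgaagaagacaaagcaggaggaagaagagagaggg
Gm16731, chr4:46535651-46535950, plus strand: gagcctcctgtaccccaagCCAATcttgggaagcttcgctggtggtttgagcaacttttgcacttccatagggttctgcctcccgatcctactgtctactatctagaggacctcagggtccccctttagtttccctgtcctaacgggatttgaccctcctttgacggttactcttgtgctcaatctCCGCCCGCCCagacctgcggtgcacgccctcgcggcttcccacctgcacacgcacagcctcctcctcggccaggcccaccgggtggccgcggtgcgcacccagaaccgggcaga
Dlx6os1, first start, chr6:6869484-6869783, minus strand: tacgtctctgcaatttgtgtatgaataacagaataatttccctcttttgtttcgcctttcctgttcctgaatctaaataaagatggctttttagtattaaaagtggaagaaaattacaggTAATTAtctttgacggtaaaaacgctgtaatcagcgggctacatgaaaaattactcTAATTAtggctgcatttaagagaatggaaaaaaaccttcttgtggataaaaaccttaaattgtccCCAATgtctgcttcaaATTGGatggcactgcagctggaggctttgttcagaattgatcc
Dlx6os1, second start, chr6:6861634-6861933, minus strand: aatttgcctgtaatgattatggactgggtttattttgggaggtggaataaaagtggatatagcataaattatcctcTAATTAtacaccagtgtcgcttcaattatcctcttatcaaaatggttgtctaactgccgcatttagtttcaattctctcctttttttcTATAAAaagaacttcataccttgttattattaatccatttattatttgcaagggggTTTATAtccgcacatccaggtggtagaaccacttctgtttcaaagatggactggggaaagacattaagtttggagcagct
The Gm16731 promoter was the richest in CpG of those read here, with 17 CpG dinucleotides and a GC content of 61.0%. It held 2 GC boxes that overlap each other and 1 CCAAT box. Both values lie within the quartiles of RefSeq promoters of this length (3 to 20 CpG, 45.7% to 61.7% GC). This window lies inside Trim14, a gene on the opposite strand (46493781 to 46536141), near its start, so its letters are not those of Gm16731 alone. The AI427809 promoter printed had 3 CpG dinucleotides, a GC content of 45.0% and 1 CCAAT box, and its second promoter (53265443 to 53265742) had 6 CpG dinucleotides, 53.3% GC and 1 CCAAT box. Both Dlx6os1 promoters were AT-rich, at 35.7% and 35.3% GC. The first held TAATTA 2 times and the second once, beside 2 TATA boxes in the second and 2 CCAAT boxes in the first. Among 32851 RefSeq promoters of the same length, 5.29% held TAATTA, 13.6% TATAAA, 35.7% GGGCGG, 37.4% CCAAT, 3.20% GAGGAAGT and 5.20% TGACTCA. A match of letters is a description, not a binding site.

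Gm34093 has no entry in that table, and its shorter transcript is printed instead, since it shows the stretch that 2 genes share. Gm34093-201 (GENCODE M21, GRCm38) is spliced from 3 exons between 36375343 and 36380789 on the minus strand of chromosome 15 and is 281 bases long. Capitals mark the 114 bases that also lie in an exon of Gm34150 on the opposite strand.
Gm34093-201: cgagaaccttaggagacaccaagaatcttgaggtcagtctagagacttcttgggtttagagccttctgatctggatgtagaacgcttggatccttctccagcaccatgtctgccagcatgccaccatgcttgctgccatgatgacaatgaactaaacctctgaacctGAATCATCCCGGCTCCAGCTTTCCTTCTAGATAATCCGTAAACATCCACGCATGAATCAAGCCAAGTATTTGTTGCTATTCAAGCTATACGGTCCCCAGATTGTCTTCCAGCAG
The strand setting of the counting is not given in the sources used here. In these 114 bases a read of Gm34093 and one of Gm34150 could not be told apart without it, while 898 of the 1012 exonic bases of Gm34093 are not shared.

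AI427809 was the RNA with the widest gap between the groups. It is annotated as a lincRNA with 2369 exonic bases on the minus strand of chromosome 4 (53261356 to 53270232). In TMM-scaled CPM (a gene's counts per 1000000 gene counts of a library), vector replicates 1 to 7 were at 17.6, 10.4, 22.2, 19.1, 22.9, 19.1 and 19.3. PSGL1_KO replicates 1 to 6 were at 280.3, 276.5, 171.8, 190.1, 205.9 and 167.7. The lowest PSGL1_KO library was thus far above the highest vector library. Vector replicate 2 lay below the other vector libraries, and PSGL1_KO replicates 1 and 2 above the rest of their group. The means were 18.68 ± 4.08 CPM (SD, n = 7) and 215.4 ± 50.7 CPM (SD, n = 6), an 11.5-fold ratio. The fitted log2 fold change was 3.53 ± 0.20 (SE), with a 95% interval of 3.10 to 3.96. Counts were 48 to 97 in vector and 882 to 1229 in PSGL1_KO libraries, so counting error was small beside the gap. Among all 10422 IDs tested, 4.14% had every PSGL1_KO library above every vector library.

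Gm16731 was also higher in every PSGL1_KO library. It is a processed transcript of 922 exonic bases on the plus strand of chromosome 4 (46535901 to 46539802). Vector libraries were at 4.35, 5.00, 5.26, 4.39, 5.06, 5.92 and 6.36 CPM. PSGL1_KO libraries were at 14.0, 14.7, 15.4, 25.5, 24.6 and 17.7 CPM. The vector libraries lay within a small range, and PSGL1_KO replicates 4 and 5 stood above the other 4 libraries of their group. Means were 5.19 ± 0.741 and 18.66 ± 5.11 CPM (SD, n = 7 and 6), a ratio of 3.60 and a log2 fold change of 1.85 ± 0.21 (SE, interval 1.39 to 2.30). The counts behind these levels were 17 to 30 in vector and 54 to 152 in PSGL1_KO libraries.

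Gm34093 was lower in every PSGL1_KO library. It is a lincRNA on the minus strand of chromosome 15 (36375343 to 36390172). Vector libraries were at 16.4, 17.6, 12.9, 21.7, 18.1, 19.3 and 14.2 CPM, and PSGL1_KO libraries at 4.59, 6.27, 4.83, 4.53, 2.51 and 3.42 CPM. No library of either group reached into the range of the other. Means were 17.18 ± 3.0 and 4.359 ± 1.28 CPM (SD), a 3.94-fold difference, and the log2 fold change was -1.99 ± 0.23 (SE, interval -2.49 to -1.49). Among all IDs tested, 2.41% had every PSGL1_KO library below every vector library.

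Dlx6os1 was lower in the mean, but the groups overlapped. It is annotated as antisense, with 5173 exonic bases on the minus strand of chromosome 6 (6820189 to 6871592). Vector libraries were at 19.4, 17.8, 13.1, 11.2, 15.9, 3.95 and 8.13 CPM, a coefficient of variation of 43.0%. PSGL1_KO libraries were at 5.32, 4.91, 5.01, 2.85, 4.36 and 5.13 CPM. Vector replicate 6 lay inside the PSGL1_KO range, and the other 6 vector libraries lay above it. Means were 12.8 ± 5.5 and 4.597 ± 0.915 CPM (SD), a 2.78-fold difference, with a log2 fold change of -1.48 ± 0.31 (SE, interval -2.16 to -0.79).

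**Figure D1:**
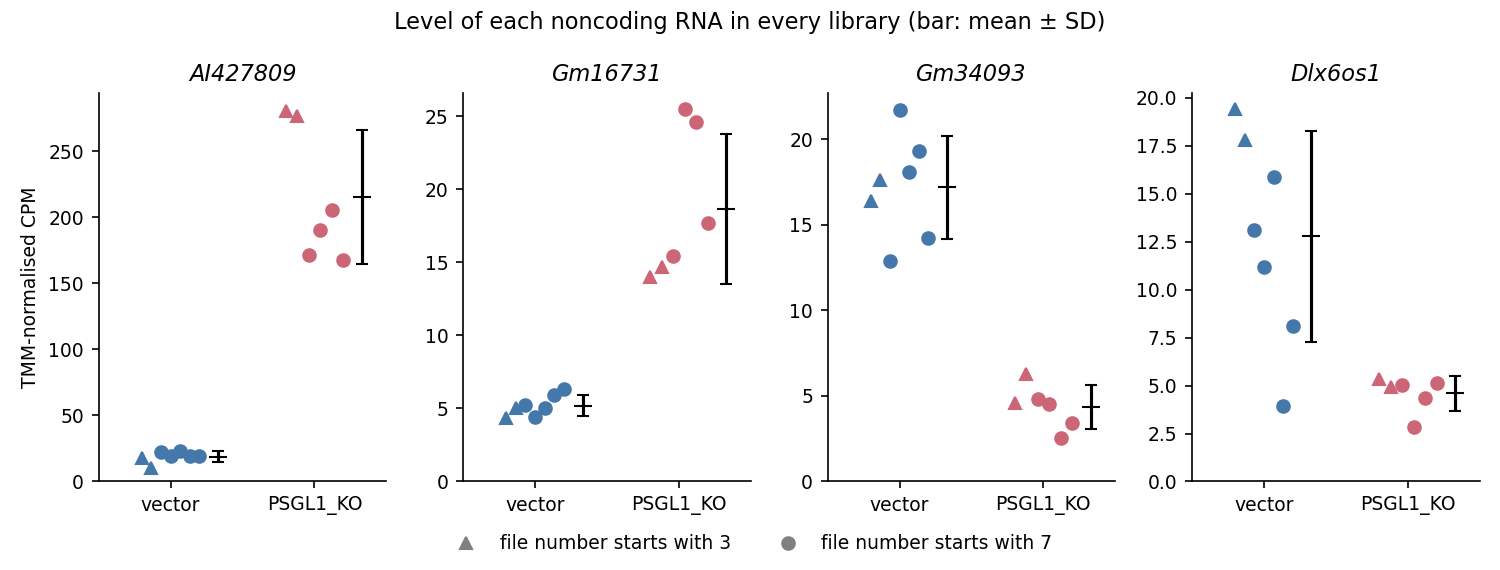
Level of each noncoding RNA, in TMM-normalised CPM on linear axes that start at 0, with 1 point per library and the mean ± SD of each group beside the points. Triangles are libraries whose number starts with 3 and circles those that start with 7. AI427809, Gm16731 and Gm34093 show no overlap between groups, while 1 vector library of Dlx6os1, at 3.95 CPM, falls among the PSGL1_KO libraries.

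Per kilobase of exon, the order of the levels differed between the groups. In vector libraries, Gm34093 was the highest at 17.0 CPM per kilobase, followed by AI427809 at 7.88, Gm16731 at 5.63 and Dlx6os1 at 2.47. In PSGL1_KO libraries, AI427809 led at 90.9 CPM per kilobase, followed by Gm16731 at 20.2, Gm34093 at 4.31 and Dlx6os1 at 0.889. These values divide by all exonic bases, and 492 of the 922 of Gm16731 are shared with genes on the opposite strand. Without a stated strand setting it is not known whether reads there were counted for it, so its place in the order is uncertain.

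The estimated size of the AI427809 gap differed between the library numbers. Among libraries with numbers starting with 3 (2 per group), means were 14.04 CPM in vector and 278.4 CPM in PSGL1_KO. Among those starting with 7 (5 vector, 4 PSGL1_KO), they were 20.53 and 183.9 CPM. The log2 fold change was 4.35 ± 0.23 in the first set and 3.16 ± 0.12 in the second (SE). In a joint model the second effect was smaller than the first by 1.16 ± 0.25 on the log2 scale (edgeR quasi-likelihood test of the interaction, adjusted p = 0.027). Of all 10422 IDs, 2.11% differed in this test, 0.969% toward a lower effect in the libraries starting with 7. The call rested on single libraries: without vector replicate 2 the difference was -0.87 (adjusted p = 0.16) and without PSGL1_KO replicate 2 it was -1.24 (adjusted p = 0.14). The PSGL1_KO libraries of both sets stayed above all vector libraries.

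For the other 3 RNAs the difference of effects between the sets of libraries did not pass the test. It was 0.33 ± 0.41 for Gm16731 (adjusted p = 0.71), -0.52 ± 0.44 for Gm34093 (adjusted p = 0.57) and 0.59 ± 0.57 for Dlx6os1 (adjusted p = 0.63). The SEs leave room for differences of a size comparable to that of AI427809. In the libraries starting with 3 and in those starting with 7, log2 fold changes were 1.64 and 1.94 for Gm16731, -1.62 and -2.18 for Gm34093, and -1.82 and -1.27 for Dlx6os1.

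To place the RNAs among the genes around them, the 3 nearest protein-coding genes on either side of each, and any protein-coding gene overlapping it, were examined in the fit over all IDs. These were 27 genes, of which 23 passed the low-count filter and 5 rose and 2 fell in PSGL1_KO libraries at an adjusted p below 0.05. Slc25a13, among those that rose, and Dlx6, among those that fell, reached the filter through the group where they were higher. Among all IDs tested, 9.02% rose and 5.49% fell. Among the 307 protein-coding IDs tested in the 3 stretches, 22.1% rose and 2.93% fell, so the 21.7% of neighbours that rose was near the share of their surroundings. The median log2 fold change of the 23 neighbours was 0.03, against -0.01 over all IDs and 0.23 over the protein-coding IDs of the stretches.

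Beside AI427809, the neighbours Slc44a1 and Nipsnap3b rose, each by far less than the gap of AI427809 itself. Abca1, the cholesterol exporter 101.461 kb away, was at 247.6, 229.8, 248.6, 203.6, 235.6, 214.7 and 238.7 CPM in vector libraries. In PSGL1_KO libraries it was at 299.6, 371.5, 208.0, 326.4, 276.1 and 295.3 CPM. All PSGL1_KO libraries but replicate 3 lay above every vector library. The log2 fold change was 0.36 ± 0.14 (SE, interval 0.06 to 0.66) and did not pass the threshold (adjusted p = 0.091). It passed without PSGL1_KO replicate 3 (0.45, adjusted p = 0.027), with the library number as a covariate (0.34, adjusted p = 0.028) and in the libraries starting with 3 alone (0.52, adjusted p = 0.027). Abca1 did not pass under any other alternative run. It was at 0.27 in the libraries starting with 7 (adjusted p = 0.15) and at 0.36 with no low-count filter (adjusted p = 0.21). For every 100 reads of Abca1 there were 4.54 to 9.71 reads of AI427809 in vector libraries (median 8.92) and 56.8 to 93.5 in PSGL1_KO libraries (median 74.5). The groups did not overlap in this ratio. AI427809 was chosen on this contrast and Abca1 moved far less, so that separation was set by the choice and is no further result. Within groups, Abca1 and AI427809 had a Pearson correlation of 0.38 over the 13 libraries, after the group means were taken out of log2 CPM, and of 0.32 after the means of each group and library number were taken out.

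Slc44a1, a choline transporter, rose from 26.32 ± 4.19 to 45.33 ± 14.6 CPM (SD, log2 fold change 0.78 ± 0.20, adjusted p = 0.013). Nipsnap3b rose from 82.21 ± 13.2 to 121.1 ± 22.7 CPM (SD, 0.56 ± 0.15, adjusted p = 0.019). In both genes 5 of 6 PSGL1_KO libraries lay above all vector libraries. Fsd1l was at 1.75 and 4.092 CPM (1.21 ± 0.44, adjusted p = 0.076). Its levels were low, with 171 counts in all, 2 to 14 per vector library and 5 to 31 per PSGL1_KO library. It passed without vector replicate 5 (1.44, adjusted p = 0.043), without PSGL1_KO replicate 3 (1.44, adjusted p = 0.022), with the library number as a covariate (1.19, adjusted p = 0.035) and with DESeq2 (1.22, adjusted p = 0.046). Nipsnap3a had 0 counts in all libraries.

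A wider list of 12 genes around AI427809 held 10 tested genes, of which 5 rose and none fell, with a median log2 fold change of 0.59. Over the protein-coding IDs of the 3 stretches 22.1% rose, as given above. Beside Slc44a1 and Nipsnap3b, those that rose included Tmem38b, an intracellular cation channel (14.29 to 28.22 CPM, 0.99 ± 0.20, adjusted p = 0.0019), and Zfp462, a zinc finger protein (122.0 to 160.5 CPM, 0.40 ± 0.13, adjusted p = 0.048). Klf4, a transcription factor, was at 14.69 and 25.85 CPM (0.81 ± 0.29, adjusted p = 0.075). Rad23b, of nucleotide excision repair, and Smc2, a condensin subunit, were at log2 fold changes of 0.03 and -0.12.

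Gm16731 shares exonic bases with both genes it overlaps, 329 with Coro2a and 163 with Trim14, each on the opposite strand, and 430 of its bases are unshared. Coro2a, a coronin of the actin cytoskeleton, varied widely in both groups. It was at 354.2, 40.0, 150.1, 37.1, 28.4, 37.5 and 20.8 CPM in vector and at 75.2, 367.6, 45.7, 72.9, 379.6 and 60.7 CPM in PSGL1_KO libraries. High and low libraries occurred in either group, and the log2 fold change was 0.81 ± 0.76 (SE, adjusted p = 0.55). Vector replicate 1, the highest of its group for Coro2a, was the lowest of its group for Gm16731 at 4.35 CPM, and the within-group correlation of the 2 genes was -0.08 (n = 13 libraries), or 0.19 within group and library number. Per 100 reads of Coro2a there were 1.23 to 30.5 reads of Gm16731 in vector and 4.01 to 34.9 in PSGL1_KO libraries.

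Trim14, an adaptor of antiviral signalling, was at 15.03 ± 4.16 and 22.22 ± 8.55 CPM (SD). Its log2 fold change was 0.57 ± 0.25 (SE, adjusted p = 0.14), and 3 of 6 PSGL1_KO libraries lay above all vector libraries. It passed with the library number as a covariate (0.56, adjusted p = 0.024) and in the libraries starting with 7 alone (0.68, adjusted p = 0.030). Per 100 reads of Trim14, Gm16731 had 25.3 to 52.3 reads in vector and 56.0 to 122.7 in PSGL1_KO libraries, with no overlap. Since Gm16731 was chosen on this contrast, the separation of this ratio is no further result. The within-group correlation was 0.61 (n = 13 libraries), and 0.21 within group and library number. With the strand setting not given, reads in the shared bases could not be assigned to 1 gene of each pair.

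Of the 8 neighbours of Gm16731, all tested, Tbc1d2 was the one that passed. It encodes a regulator of Rab GTPases and lies 64.588 kb away. Vector libraries were at 3.58, 4.35, 6.93, 5.71, 5.54, 6.12 and 6.36 CPM and PSGL1_KO libraries at 5.56, 7.36, 10.6, 16.3, 10.9 and 13.1 CPM. PSGL1_KO replicate 1 was within the vector range and the other 5 above it. The log2 fold change was 0.95 ± 0.25 (SE, adjusted p = 0.016), and 0.72 in the libraries starting with 3 alone (adjusted p = 0.29). Nans (sialic acid synthase), Anp32b (a histone chaperone), Hemgn (a nuclear protein of blood cells), Gabbr2 (a GABA receptor subunit) and Anks6 (an ankyrin-repeat protein of the cilium) had log2 fold changes of -0.64 to 0.49, with adjusted p from 0.14 to 0.96. Gabbr2 passed in libraries starting with 3 alone (-0.83, adjusted p = 0.013) and was at -0.02 in those starting with 7 (adjusted p = 0.97). Anks6 passed with the library number as a covariate (0.51, adjusted p = 0.0026) and in libraries starting with 7 (0.54, adjusted p = 0.0096).

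Of the 6 neighbours of Gm34093, all tested, Rnf19a fell. It encodes a RING-type ubiquitin ligase and lies 92.196 kb away. Vector libraries were at 366.8, 302.2, 255.0, 218.5, 208.1, 255.3 and 241.2 CPM and PSGL1_KO libraries at 227.2, 190.4, 140.2, 128.6, 131.4 and 130.6 CPM. PSGL1_KO replicate 1 lay within the vector range and the other 5 below it. The log2 fold change was -0.74 ± 0.18 (SE, adjusted p = 0.0076). Pabpc1, the cytoplasmic poly(A)-binding protein, had a similar estimate with a wider spread, from 8593 ± 3020 to 5116 ± 1496 CPM (SD, -0.75 ± 0.26, adjusted p = 0.061). Its call depended on the setting. It passed with DESeq2 (-0.76, adjusted p = 0.024), with no low-count filter (-0.75, adjusted p = 0.00065), with upper-quartile factors (-0.77, adjusted p = 0.041) and with the library number as a covariate (-0.66, adjusted p = 0.0011). It also passed in libraries starting with 7 (-0.78, adjusted p = 0.00066) and without vector replicate 1 or 2 (-0.85 and -0.86, adjusted p = 0.025 and 0.020), but not in libraries starting with 3 (-0.37, adjusted p = 0.15). Spag1, Polr2k, Ankrd46 and Snx31 were at -0.09, 0.25, -0.19 and 0.03, with adjusted p from 0.43 to 0.95. In libraries starting with 7 alone, Ankrd46 passed at -0.40 (adjusted p = 0.042), and in those starting with 3 it was at 0.19 (adjusted p = 0.52).

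The noncoding genes next to Gm34093 were low in the PSGL1_KO libraries as well. Gm33936, Gm34150 and Gm34093 lie within 49.0 kb of chromosome 15. Gm33936 had 10 to 26 counts in vector libraries and 5, 3, 1, 1, 0 and 0 counts in PSGL1_KO libraries (4.029 and 0.3966 CPM, log2 fold change -3.46 ± 0.56, adjusted p = 0.00029). Gm34150 was at 6.65, 3.70, 4.78, 4.61, 4.58, 6.12 and 3.05 CPM in vector and 2.17, 2.73, 2.97, 1.84, 0.335 and 1.14 CPM in PSGL1_KO libraries (-1.38 ± 0.37, adjusted p = 0.017). In all 3 genes every PSGL1_KO library was below every vector library in TMM-scaled CPM, as in 2.41% of all IDs tested. For Gm34150 the margin was small, at 2.97 CPM in PSGL1_KO replicate 3 (16 counts) and 3.05 CPM in vector replicate 7 (12 counts). Gm33936 and Gm34150 reached the low-count filter through their vector levels. Being tested thus already favoured a fall, and their p-values are no independent support. Gm34150 shares the 114 bases shown above with Gm34093. Within groups, Gm34093 and Gm34150 had a correlation of 0.73 over the 13 libraries (0.67 within group and library number).

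Dlx6, a homeobox transcription factor gene, lies inside Dlx6os1 on the opposite strand and shares no exonic base with it. Vector libraries were at 5.88, 4.78, 5.5, 3.51, 6.5, 3.55 and 4.58 CPM and PSGL1_KO libraries at 1.21, 2.73, 0.371, 0.671, 1.68 and 1.33 CPM. Dlx6 fell with no overlap between the groups, as in 2.41% of all IDs tested, where Dlx6os1 overlapped. The log2 fold change was -1.90 ± 0.37 (SE, adjusted p = 0.0015), and -1.41 in the libraries starting with 3 alone (adjusted p = 0.061). Levels were low, with 185 counts in all 13 libraries together and at most 27 in one. Dlx6 reached the low-count filter through its vector levels, so being tested already favoured a fall. With no such filter it was at -1.89 (adjusted p = 0.00031). Without a stated strand setting, reads of unspliced Dlx6os1 over the exons of Dlx6 could not be told apart from reads of Dlx6. The within-group correlation of the pair was 0.43 (n = 13 libraries), and 0.40 within group and library number.

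Dlx5, the other homeobox gene of the pair, is 6.213 kb from Dlx6os1 and had 2 counts in all, both in 1 vector library. Dlx6os2, a further antisense gene of the locus, had 40 counts in all and did not reach the filter. Slc25a13, a mitochondrial aspartate-glutamate carrier, rose from 2.229 ± 0.382 to 4.6 ± 1.48 CPM (SD, log2 fold change 1.05 ± 0.28, adjusted p = 0.016). It reached the low-count filter through its PSGL1_KO levels, so being tested already favoured a rise. With no filter on low counts its value was 1.06 (adjusted p = 0.078), and in the libraries starting with 3 alone 0.60 (adjusted p = 0.55). Sdhaf3, an assembly factor of succinate dehydrogenase, was at 33.43 and 23.26 CPM (-0.53 ± 0.24, adjusted p = 0.15), and passed with the library number as a covariate (-0.59, adjusted p = 0.0090), in libraries starting with 7 (-0.70, adjusted p = 0.017) and without PSGL1_KO replicate 2 (-0.70, adjusted p = 0.050 as rounded). Sem1, a proteasome subunit, was at -0.08 ± 0.21 (adjusted p = 0.85), at -0.42 in libraries starting with 7 (adjusted p = 0.023) and at 0.35 in those starting with 3 (adjusted p = 0.16). Tac1, a neuropeptide precursor, had 12 counts, and Dync1i1, a dynein chain, had 0.

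A wider list of 14 genes of the Dlx5/Dlx6 region held 9 tested genes, of which 3 rose and 2 fell, with a median log2 fold change of -0.08, beside 22.1% and 2.93% of the protein-coding IDs of the stretches. Slc25a13 and Dlx6, with the limit of the low-count filter given above, are counted among them. Pdk4, an inhibitory kinase of pyruvate dehydrogenase, rose by 2.02 ± 0.48 on the log2 scale (4.018 to 16.27 CPM, adjusted p = 0.0075). Pon3, a paraoxonase, rose by 1.16 ± 0.25 (8.783 to 19.64 CPM, adjusted p = 0.0036). Asns, asparagine synthetase, fell with Dlx6, at -1.08 ± 0.17 (1077 to 509.1 CPM, adjusted p = 2e-04). Genes of this region thus moved in both directions.

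**Figure D2:**
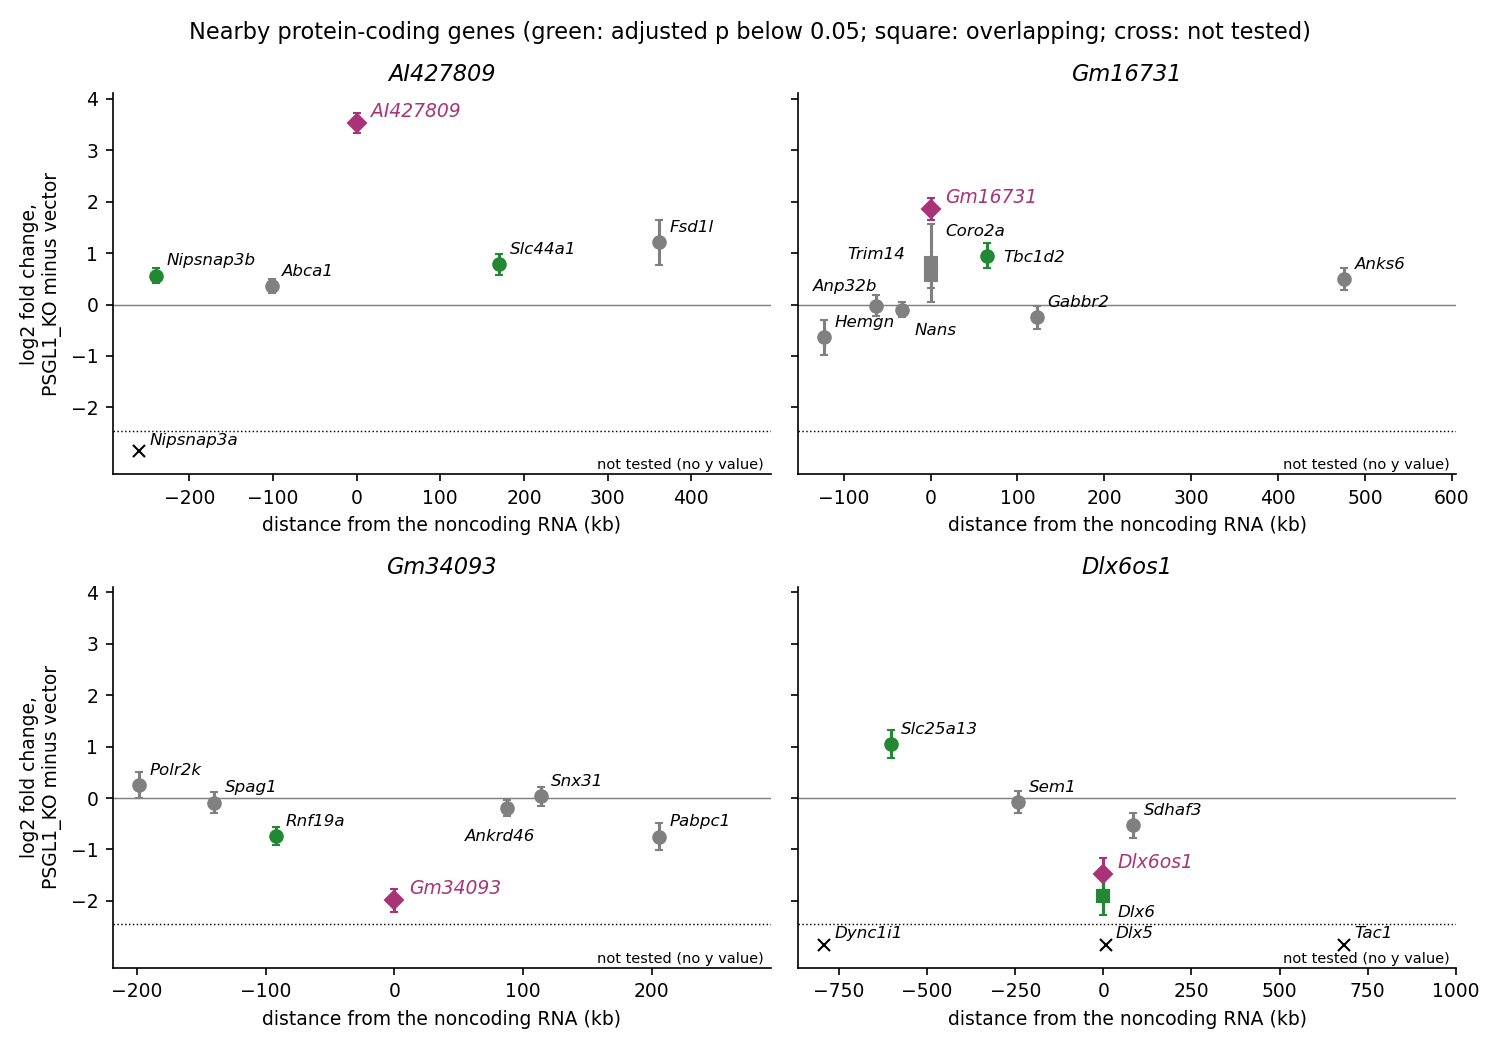
Log2 fold change (PSGL1_KO minus vector, bars ± SE) of nearby protein-coding genes against their distance in kb from each noncoding RNA, 1 panel per RNA. The diamond is the RNA itself, squares at 0 are overlapping genes, green marks an adjusted p below 0.05, and crosses under the dotted line are genes not tested, which have no value. The green neighbours of AI427809 shown, Nipsnap3b at 0.56 and Slc44a1 at 0.78, lie far below its own 3.53, while Dlx6 at -1.90 lies beside Dlx6os1 at -1.48.

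**Figure D3:**
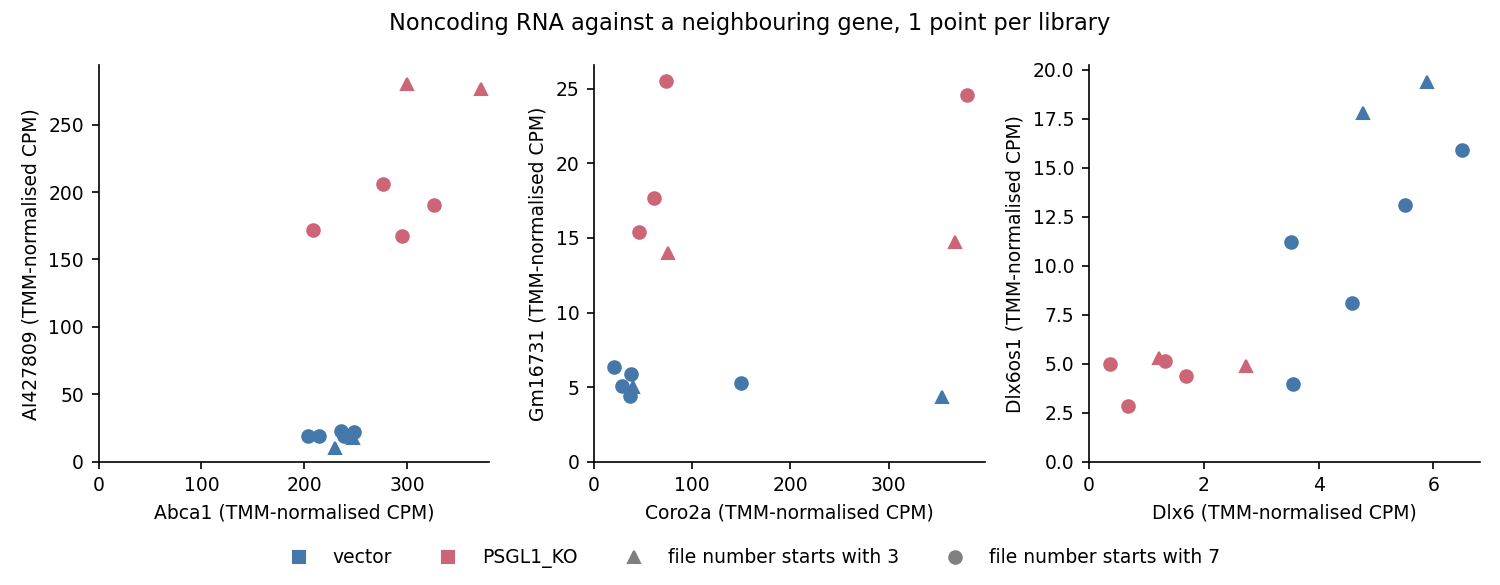
Level of AI427809, Gm16731 and Dlx6os1 against that of Abca1, Coro2a and Dlx6 in each of the 13 libraries, in TMM-normalised CPM on linear axes from 0. Colours are groups, triangles are libraries with numbers starting with 3 and circles those starting with 7. AI427809 splits the groups where Abca1 spans 203.6 to 371.5 CPM, Gm16731 splits them across the whole range of Coro2a, and for Dlx6 and Dlx6os1 the groups split along the Dlx6 axis.

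The genes whose pattern was most like each RNA were taken from the IDs of the 3 stretches by their within-group correlation over the 13 libraries. Each list is the top of many correlations, and the libraries share depth and sorting, so the values are descriptions. AI427809 was most like Aptx, a DNA-strand-break repair gene, at 0.92, and Gm33936, at 0.77. Within group and library number these were 0.80 and 0.44. Aptx itself was at 53.08 and 55.91 CPM in the 2 groups, so its likeness lay within the groups and not between them. Gm16731 was most like Col15a1, a basement membrane collagen (0.79), Fam214b (0.78), Tln1, which encodes talin (0.74), Tbc1d2 (0.73) and Rusc2 (0.72), which came to 0.48 to 0.72 within group and library number. Gm34093 was most like Gm34150 (0.73) and Nudt2 (0.72), and Dlx6os1 most like Ndufaf4 (0.73) and Ufl1 (0.72), and these 4 came to 0.60 to 0.70.

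Between the 4 RNAs themselves the within-group correlations ran from -0.55, for Gm16731 with Gm34093, to 0.15, for AI427809 with Gm34093. Gm16731 and Dlx6os1 were at -0.53, AI427809 and Gm16731 at -0.20, AI427809 and Dlx6os1 at -0.15, and Gm34093 and Dlx6os1 at -0.08. Several of these values turned once the library number was taken out with the group. AI427809 came to 0.10 with Gm16731, -0.33 with Gm34093 and 0.25 with Dlx6os1, while Gm16731 and Dlx6os1 stayed at -0.53, Gm16731 and Gm34093 came to -0.37, and Gm34093 and Dlx6os1 to -0.21.

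Among the noncoding IDs of the 3 stretches, differences of this kind were not limited to the 4 RNAs. Of 669 long noncoding, antisense and pseudogene IDs, 68 passed the low-count filter, the 4 among them. Of the 68, 14.7% were higher and 11.8% lower at an adjusted p below 0.05, and of the 43 without pseudogenes 23.3% and 11.6%. Over all IDs tested the shares were 9.02% and 5.49%. The shares of the 68 and of the 43 count the 4 RNAs in and are raised by them. Since the 4 RNAs were chosen on this contrast, nothing is read from their place among them. Of the other 64 IDs, 8 rose and 6 fell. The median log2 fold change of the 68 was -0.08 and that of the 43 was 0.18.

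**Figure D4:**
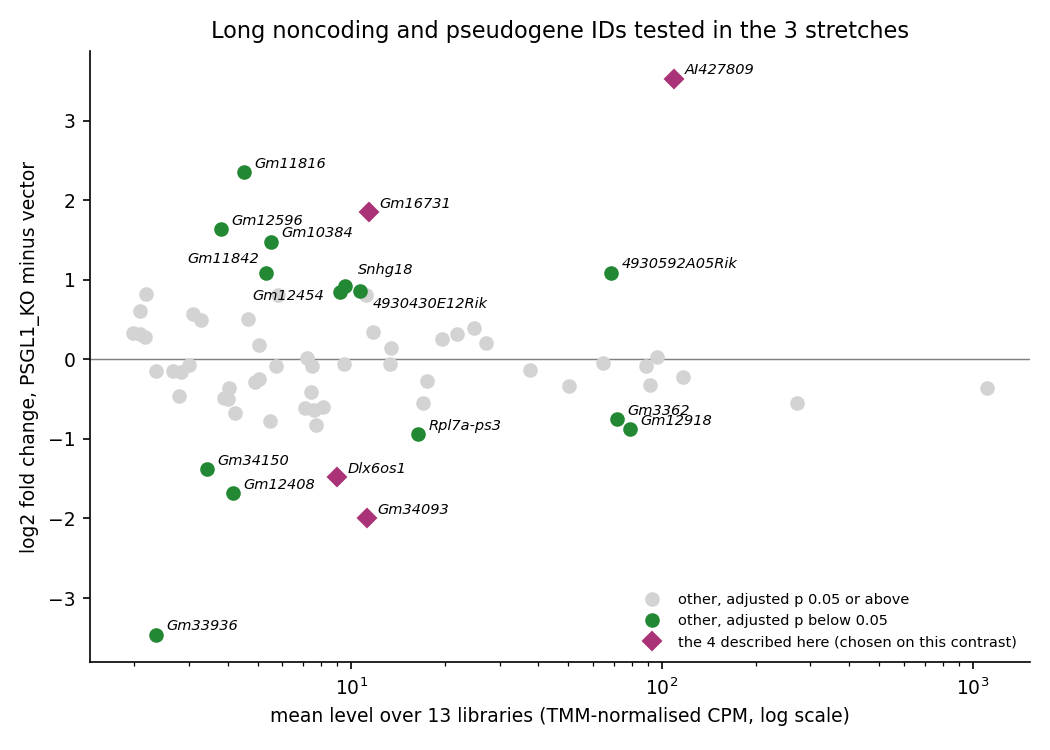
Log2 fold change (PSGL1_KO minus vector) of the 68 tested long noncoding and pseudogene IDs of the 3 stretches against their mean level over the 13 libraries, in TMM-normalised CPM on a log axis. Diamonds are the 4 RNAs, green circles are other IDs with an adjusted p below 0.05 and grey circles the rest. AI427809 has the highest value, 3.53, and Gm33936 the lowest, -3.46.

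Marker genes of cells that the sorted population could hold are given beside the 4 RNAs, and 22.1% of all protein-coding IDs tested in the stretches rose. All 3 macrophage and myeloid markers in the stretches, of 10 listed, rose: the kinase gene Lyn (58.24 to 244.9 CPM, log2 fold change 2.07 ± 0.18, adjusted p = 2.1e-07), the transcription factor gene Tfec (1.41 ± 0.21, adjusted p = 0.00011) and the proton pump subunit gene Atp6v0d2 (1.00 ± 0.29, adjusted p = 0.025). Their summed level was 68.04 to 155.8 CPM in vector and 290.3 to 515.0 CPM in PSGL1_KO libraries, with no overlap. Lyn, which B cells express as well, had the highest mean of the 3 in both groups, so the sum does not stand for myeloid cells alone. By itself Atp6v0d2 overlapped between the groups (18.7 to 73.2 and 70.1 to 186.3 CPM), while Lyn and Tfec did not. Of all IDs tested, 4.14% had every PSGL1_KO library above every vector library. Both B-cell markers, of 7 listed, summed to 29.67 to 76.97 and 151.6 to 319.2 CPM, and Cd72 of the pair rose (2.27 ± 0.26, adjusted p = 6.2e-06). Pax5, which defines B cells more strictly, was at 8.059 and 13.09 CPM (0.69 ± 0.27, adjusted p = 0.10). The 4 T-cell markers in the stretches, of 13 listed, summed to 430.5 to 602.0 and 360.0 to 552.8 CPM, with overlap, Bach2 rising and Sit1 falling among them. Bach2 reached the low-count filter through its PSGL1_KO levels, so being tested already favoured its rise. A sort for CD45 should remove stromal cells, yet their markers were present, Col1a2 at 1418 and 2598 CPM (0.87 ± 0.33, adjusted p = 0.083). Of 10 tested stromal markers 3 rose (Reck, Il11ra1 and Cntfr), and the summed level of the 11 in the stretches was 958.9 to 2468 and 1093 to 4579 CPM, with overlap. Cntfr, like Bach2, reached the low-count filter through its PSGL1_KO levels. No listed marker in the stretches was at 0 in all libraries. The part of these markers in the levels of the 4 RNAs was not tested.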

How the data were processed

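For each of 13 RNA-seq libraries, the authors deposited 1 table of unnormalised counts by gene ID (7 vector, 6 PSGL1_KO, grouped by title). The submitters' processing notes name HISAT2, SAMtools, HTSeq and the build mm10. Tool versions, annotation release and strandedness were not given in the sources used here. The 5 HTSeq summary rows, with the shares given above, stayed out of library sizes and tests. IDs were matched without version to GENCODE M21 on GRCm38 (52073 of 56923). Differences were tested with edgeR 4.0.16 (R 4.3.3): filterByExpr, TMM factors, quasi-likelihood test, Benjamini-Hochberg adjustment over the 10422 IDs kept. SEs are the log2 fold change over the square root of F, and intervals use 11 residual degrees of freedom. The fit was tested on simulated data.

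The 4 RNAs, the neighbours, lists and markers were chosen with earlier results of these data known. Named genes were the 4 RNAs, their 3 nearest protein-coding genes per side, overlapping genes, the listed genes of 2 regions, other noncoding IDs that passed the test, and the most correlated IDs. The values of 1 neighbour, which is in the counts, are not reported here. Alternatives were DESeq2 1.42.0, no low-count filter, sizes without mitochondrial IDs, upper-quartile factors, the library number as covariate or subset, a replicate block, and each library left out. Correlations within group and library number were added after seeing the data.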

Additional observations from a re-analysis of the deposited data

Results flagged for a closer look

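Of 54 sets of values (each RNA or neighbour in each group), 3 held a library standing apart from the rest of its group by the gap to its nearest library. The gap rule was set at a level of about 1 such set in 20 by chance, which was not measured here. The 3 of 54 are near that level. AI427809 was lowest in vector replicate 2, at 10.4 CPM, against 17.6 to 22.9 CPM in the other vector libraries. Coro2a was highest in vector replicate 1, at 354.2 CPM, against 20.8 to 150.1 CPM in the others. Hemgn was lowest in PSGL1_KO replicate 2, at 0.818 CPM, against 2.47 to 3.38 CPM in the others, which is 3 counts against 13 to 16.

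Of the 27 IDs (the 4 RNAs and the 23 tested neighbours) whose PSGL1_KO effect was compared between library numbers starting with 7 and with 3, AI427809 was the 1 that differed, by -1.16 ± 0.25 on the log2 scale (edgeR interaction test, adjusted p = 0.027). The difference did not pass the same test without vector replicate 2 (adjusted p = 0.16) or without PSGL1_KO replicate 2 (adjusted p = 0.14). The vector library that stood apart for AI427809 is 1 of the 2 vector libraries with numbers starting with 3.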

How the results depend on the processing

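All 4 RNAs kept the direction of their log2 fold change under every alternative run. AI427809 was at 3.16 in libraries with numbers starting with 7 and 4.35 in those starting with 3, and Gm34093 at -1.62 in the latter. With each library left out in turn, they ranged from 3.43 to 3.61 (AI427809), 1.75 to 1.91 (Gm16731), -2.11 to -1.87 (Gm34093) and -1.63 to -1.35 (Dlx6os1), and the difference of the AI427809 effect between library numbers from -1.57 to -0.87.

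IDs that rose over all tested numbered 940, and 1435 with the library number as covariate. IDs that fell numbered 572, and 953 with the replicate block, 1254 with the covariate, 1038 in libraries starting with 7 and 1135 in those starting with 3. Lower noncoding IDs numbered 8, and 14 with the covariate, 17 in libraries starting with 7 and 5 without pseudogenes, the last a count added after seeing the data. Neighbours that rose numbered 5, and 9 with the covariate and 3 in libraries starting with 3. Neighbours that fell numbered 2, and 4 with the replicate block, 4 with the covariate and 6 in libraries starting with 7. The cause was not tested.

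Neighbours that changed sign had not passed in the test over all 13 libraries, though Sem1 (-0.42) and Ankrd46 (-0.40) passed in libraries starting with 7. They were Snx31 (-0.19 in libraries starting with 7), Anp32b (0.08 with the replicate block, 0.05 with the covariate), and, in libraries starting with 3, Anp32b (0.36), Nans (0.36), Sem1 (0.35) and Ankrd46 (0.19). With each library left out, Snx31 ranged from -0.03 to 0.11, Anp32b from -0.12 to 0.07, Spag1 from -0.26 to 0.02 and Sem1 from -0.32 to 0.05.

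Same-numbered libraries of the 2 groups had correlations of their deviations from the group means of 0.63, 0.35, -0.05, 0.31, 0.01 and 0.47, and not every library was most like its own number, so the numbers were not taken as pairing the samples. With the replicate block, Pabpc1 (-0.62, adjusted p = 0.015), Sdhaf3 (-0.58, adjusted p = 0.031) and Anks6 (0.49, adjusted p = 0.014) passed.

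Depth limits the low genes. Dlx6 has at most 27 and Gm33936 at most 26 counts in a library, and libraries starting with 3 are 2 per group.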

Other observations

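Other noncoding genes of the stretches on chromosomes 4 and 15 rose in PSGL1_KO libraries by the edgeR test. The abundant 4930592A05Rik rose from 45.11 to 96.29 CPM (log2 fold change 1.09 ± 0.21, adjusted p = 0.0016) and Gm12596 from 1.931 to 6.027 CPM (1.64 ± 0.35, adjusted p = 0.0034). In both, every PSGL1_KO library was above every vector library, as in 4.14% of all IDs tested. Gm11816 rose from 1.555 to 7.969 CPM (2.35 ± 0.38, adjusted p = 0.00027) and Gm10384 from 3.009 to 8.466 CPM (1.48 ± 0.37, adjusted p = 0.011). Gm12596, Gm11816 and Gm10384 reached the low-count filter through their PSGL1_KO levels, so being tested already favoured a rise. Snhg18, a small nucleolar RNA host gene, rose from 6.803 to 12.81 CPM (0.92 ± 0.28, adjusted p = 0.037). Gm11842 (1.08), 4930430E12Rik (0.86) and Gm12454 (0.85) rose as well.

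Beside Gm33936 and Gm34150, 4 more noncoding IDs fell. Gm12408 fell from 6.047 to 1.971 CPM (-1.68 ± 0.41, adjusted p = 0.0086). It reached the low-count filter through its vector levels, so being tested already favoured a fall. The other 3 were the pseudogenes Rpl7a-ps3 (21.1 to 10.88 CPM, -0.94 ± 0.21, adjusted p = 0.0043), Gm12918 (-0.88) and Gm3362 (-0.75). Reads of a pseudogene such as Rpl7a-ps3 can be shared with its parent gene, so these 3 values are uncertain.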
